A study of Mus musculus with 18 samples.

Results

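The experiment asked whether a small interfering RNA (siRNA) against Foxm1 changes the mRNAs of mouse neonatal ventricular cardiac fibroblasts differently in the presence of angiotensin II. These cells make the matrix of the newborn ventricle. The measurement rests on 12 of the 18 sequenced libraries, 3 in each of 4 groups, chosen by their labels alone. In si-Foxm1+Ang-II the cells received the Foxm1 siRNA together with angiotensin II, and in Ang-II the hormone, with no siRNA named. In si-Foxm1 they received the Foxm1 siRNA alone, and in si-NC a negative control siRNA. The remaining 6 libraries belong to an overexpression arm, which enters here only in 1 alternative fit. The labels name neither mouse strain, dose, exposure time nor siRNA sequence, and do not tell whether a control siRNA was given together with the hormone in Ang-II. The effect of the Foxm1 siRNA in the presence of the hormone and an effect of transfection as such therefore cannot be told apart. Nothing states that replicates were separate cultures, so p-values measure the spread between these libraries, which may be technical.

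FOXM1 is a forkhead transcription factor that drives the genes of mitosis, and it falls silent in cells that leave the cell cycle. Angiotensin II acts through a G protein coupled receptor and is known in the heart for turning fibroblasts towards matrix production and contractile gene expression. An interaction asks whether the effects of both agents simply add up on a log scale or whether one changes the size or direction of the other. For each gene it was taken as si-Foxm1+Ang-II minus Ang-II, less si-Foxm1 minus si-NC, on the log2(FPKM + 1) scale. A value above 0 means that the siRNA difference was more positive with the hormone, whatever its own sign. FPKM counts fragments relative to gene length and library total, and adding 1 understates the changes of weakly expressed genes. The test covered the 11180 of 18264 genes with a mean of at least 1 FPKM over the 12 libraries, and a gene was called at an adjusted p under 0.05 (limma, Benjamini-Hochberg over all genes tested).

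Each library held between 18047190 and 19343343 fragments on genes, as recovered from the deposited values. At this depth a count of 0 allows up to 3 fragments, or 0.155 to 0.166 FPKM for a gene of 1 kb, for counting error only. Ang-II replicate 3 stood apart from its group, with a mean chi-square of 5.04 and 5.47 against the other Ang-II libraries, where all other pairs within a group gave 1.76 to 2.88. Counts of calls that move without it are given with the value without it. Fibroblast markers were abundant, with 1292 ± 21.7, 1355 ± 39.9, 672 ± 23.2 and 735 ± 19.1 FPKM of the collagen gene Col1a1 in si-Foxm1+Ang-II, Ang-II, si-Foxm1 and si-NC (SD, n = 3 each). The 24 fibroblast markers summed to 7410 to 7585 FPKM in si-Foxm1+Ang-II, 7840 to 8209 in Ang-II, 6194 to 6550 in si-Foxm1 and 6934 to 7213 in si-NC. Of these markers 3 averaged under 1 FPKM. Cardiomyocyte genes were also abundant, and the 40 cardiomyocyte markers summed to 9188 to 9549 FPKM in si-Foxm1+Ang-II, 14872 to 16175 in Ang-II, 11809 to 12517 in si-Foxm1 and 19546 to 21064 in si-NC. RNA of cardiomyocyte genes was thus present in cells labelled as fibroblasts, and no sort is stated.

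Foxm1 itself had 3.55, 3.36 and 3.03 FPKM in si-Foxm1+Ang-II and 4.23, 4.03 and 5.65 FPKM in Ang-II. Without the hormone it had 6.06, 5.13 and 6.71 FPKM in si-Foxm1 and 10.4, 9.64 and 10.3 FPKM in si-NC. Knockdown libraries lay below their controls in both conditions, with no overlap, and si-Foxm1+Ang-II held the least. The siRNA lowered Foxm1, with a log2 difference of -0.38 ± 0.10 with the hormone (adjusted p = 0.00452, limma) and -0.68 ± 0.10 without it (adjusted p = 4.33e-05, limma). The interaction for Foxm1 was 0.30 ± 0.14 and was not called (adjusted p = 0.345, limma). Leaving out Ang-II replicate 3 gave 0.43 (adjusted p = 0.0690), the lowest p among the fits with 1 library less. Usp10, a deubiquitinase gene, had an interaction of 0.04 ± 0.06 (adjusted p = 0.817), with siRNA differences of 0.32 ± 0.04 and 0.28 ± 0.04 with and without the hormone.

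Across the transcriptome the siRNA did much the same in both conditions, and the interaction singled out a small set. It called 103 genes, 0.921% of those tested, of which 45 were higher (0.403%) and 58 lower (0.519%). Unadjusted p fell under 0.05 in 1603 genes, or 14.3%. Without Ang-II replicate 3 the calls numbered 196 (108 higher, 88 lower), and they numbered 37 to 64 without si-Foxm1+Ang-II replicate 2 or 3, si-Foxm1 replicate 1 or 2, or any of the si-NC replicates. Among all genes tested 94.8% had an interaction smaller than 0.25 in size, and the median was -0.02. The siRNA difference itself was called in 6860 genes with angiotensin II (61.4%, of which 44% of genes tested higher and 17.4% lower) and in 7342 without it (65.7%, with 48.5% higher and 17.2% lower). Of the 5932 genes called in both, 5912 (99.7%) had the same sign. These siRNA differences share no library, and across genes they correlated with Pearson's r of 0.91 and Spearman's rho of 0.88, a description in which genes are not independent replicates.

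**Figure D1:**
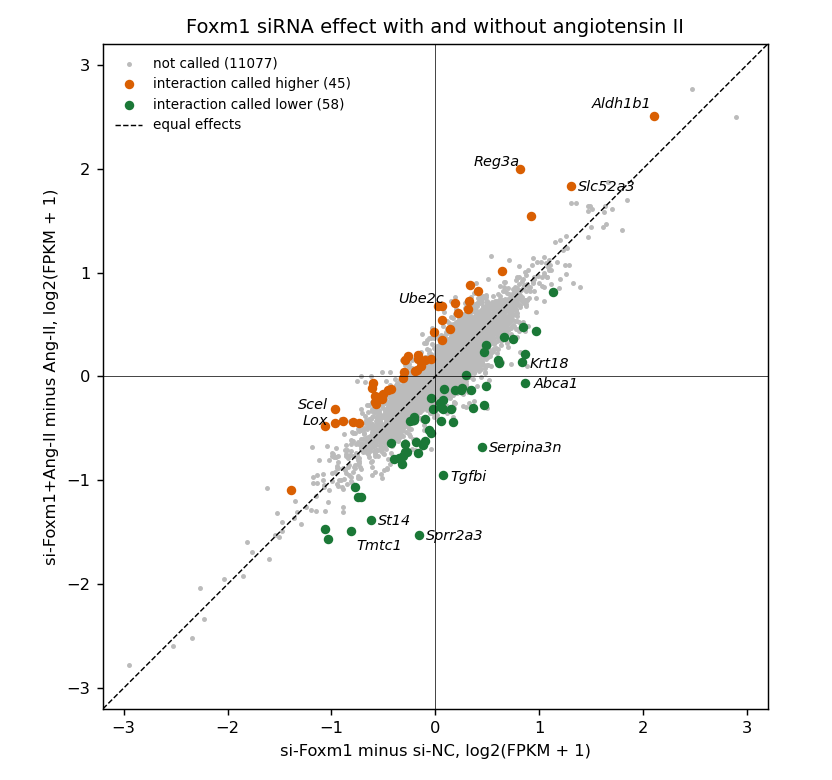
Each point is 1 of 11180 genes, with the siRNA difference without angiotensin II (si-Foxm1 minus si-NC) across and with it (si-Foxm1+Ang-II minus Ang-II) upwards, both in log2(FPKM + 1). The dashed line marks equal effects; the 45 genes called higher lie above it and the 58 called lower beneath it, while the other genes gather along it.

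The called interactions were of moderate size. Their median size was 0.40 on the log2 scale, 30 of the 103 exceeded 0.5, and 4 reached 1, namely Reg3a, Sprr2a3, Serpina3n and Tgfbi. On untransformed FPKM the interaction had the same sign for 99 of the 103; the exceptions were Lox, Aldh1b1, Cthrc1 and Col11a1, named after their values were seen. The siRNA differences behind the calls took every form. In 33 genes both were called with the same sign and the difference was larger with the hormone, and in 25 it was smaller. In 20 genes the siRNA difference was called with angiotensin II but not without it, and in 12 the reverse held. In 13 the differences were called in opposite directions. These classes depend on how libraries are scaled. Median-of-ratios scaling took 0.11 off the median siRNA difference of all genes without the hormone and 0.09 off that with it, and the share of siRNA calls that were higher became 47.4% without and 49.7% with the hormone, in place of 73.8% and 71.7%. Under both that scaling and quantile normalization the class was kept by 30 of the 33 genes, 22 of the 25, 14 of the 20, 8 of the 12 and 4 of the 13. The interaction median is nearly free of this shift, and 90 of the 103 calls stood under both scalings, although the split became 67 higher and 48 lower with median-of-ratios scaling.

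Genes called lower had a siRNA difference that was more negative with angiotensin II. Tgfbi, whose product is a matrix protein that binds integrins and is induced by TGF-beta, had 8.13, 9.09 and 9.53 FPKM in si-Foxm1+Ang-II and 19.9, 17.5 and 17.2 FPKM in Ang-II, against 5.75, 5.54 and 5.90 FPKM in si-Foxm1 and 5.35, 5.93 and 4.97 FPKM in si-NC. Ang-II libraries were the highest and si-Foxm1+Ang-II libraries the next, while si-Foxm1 and si-NC overlapped. The siRNA lowered Tgfbi with the hormone, by a log2 difference of -0.95 ± 0.07 (adjusted p = 6.69e-08, limma), against 0.07 ± 0.07 without it (adjusted p = 0.362), an interaction of -1.03 ± 0.10 (adjusted p = 0.0004005).

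Serpina3n encodes a secreted inhibitor of serine proteases. It had 27.3, 25.1 and 30.7 FPKM in si-Foxm1+Ang-II and 43.7, 40.9 and 50.5 FPKM in Ang-II, while si-Foxm1 held 43.1, 41.4 and 40.1 FPKM and si-NC 31.3, 27.7 and 31.7 FPKM. The order of siRNA and control libraries was thus opposite with and without the hormone, and there was no overlap in either condition. The siRNA difference was -0.68 ± 0.08 with the hormone and 0.45 ± 0.08 without it, for an interaction of -1.13 ± 0.11 (adjusted p = 0.0004005, limma). Serpina3n belongs to a cluster of near-identical genes, so the split of fragments among them is uncertain. St14, the gene of the membrane protease matriptase, had 5.61, 5.05 and 5.71 FPKM in si-Foxm1+Ang-II and 17.5, 15.6 and 14.5 FPKM in Ang-II, against 1.80, 2.03 and 1.97 FPKM in si-Foxm1 and 3.44, 3.25 and 3.86 FPKM in si-NC. The siRNA lowered it in both conditions, with differences of -1.38 ± 0.07 and -0.62 ± 0.07, and the interaction was -0.76 ± 0.10 (adjusted p = 0.00239, limma).

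Abca1, the pump that exports cholesterol from cells, differed in another way. It had 2.35, 1.88 and 2.26 FPKM in si-Foxm1+Ang-II and 2.19, 2.13 and 2.57 FPKM in Ang-II, against 8.93, 10.2 and 6.57 FPKM in si-Foxm1 and 3.70, 4.28 and 4.59 FPKM in si-NC. With the hormone the libraries overlapped, and without it the siRNA libraries were higher. The siRNA difference was -0.06 ± 0.12 with angiotensin II (adjusted p = 0.679) and 0.87 ± 0.12 without it (adjusted p = 2.27e-05), an interaction of -0.93 ± 0.16 (adjusted p = 0.0195, limma). This call was lost without si-Foxm1+Ang-II replicate 2, si-Foxm1 replicate 1 or si-NC replicate 1, where the adjusted p reached 0.0608 at most. Sprr2a3, of a family of small proline-rich proteins of the skin barrier, had the most negative value at low expression. It had 1.82, 1.08 and 1.43 FPKM in si-Foxm1+Ang-II and 7.89, 3.93 and 6.72 FPKM in Ang-II, against 0.947, 0.566 and 0.313 FPKM in si-Foxm1 and 0.954, 0.432 and 0.993 FPKM in si-NC. Its interaction of -1.36 ± 0.29 (adjusted p = 0.0422, limma) stood on as few as 5 fragments in a library, was called in 3 of 12 fits that left out 1 library, and had an adjusted p of 0.155 in the voom fit on counts. Its near-identical family members make its counts uncertain as well.

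Further down the list of lower genes stood Tcim, a regulator linked to Wnt signalling, with -0.74 ± 0.16 (adjusted p = 0.0439), and Krt18, a keratin of simple epithelia, with -0.69 ± 0.07 (adjusted p = 0.000578). Krt18 had 44.9 ± 2.26 FPKM in si-Foxm1+Ang-II, 40.8 ± 3.04 in Ang-II, 42.4 ± 1.91 in si-Foxm1 and 23.4 ± 0.396 in si-NC (SD, n = 3), so that only si-NC was low. Tmtc1, which encodes a protein mannosyltransferase of the endoplasmic reticulum, had 0.949 ± 0.0818, 4.47 ± 0.191, 0.975 ± 0.0901 and 2.47 ± 0.165 FPKM in the same order, and an interaction of -0.67 ± 0.08 (adjusted p = 0.00166). The siRNA groups were alike and low with and without the hormone, and Ang-II was the highest group. Prkar1b, a regulatory subunit of protein kinase A, had -0.67 ± 0.08 (adjusted p = 0.00231). Fxyd6, a regulator of the sodium pump, had -0.65 ± 0.08 (adjusted p = 0.00159), with 67.1 ± 2.44, 57.7 ± 3.72, 32.6 ± 2.06 and 17.4 ± 0.874 FPKM from si-Foxm1+Ang-II to si-NC. Of the 10 lowest genes, 7 remained called whichever single library was left out; Sprr2a3, Abca1 and Tcim did not, and Tcim was called in 4 of those 12 fits.

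**Figure D2:**
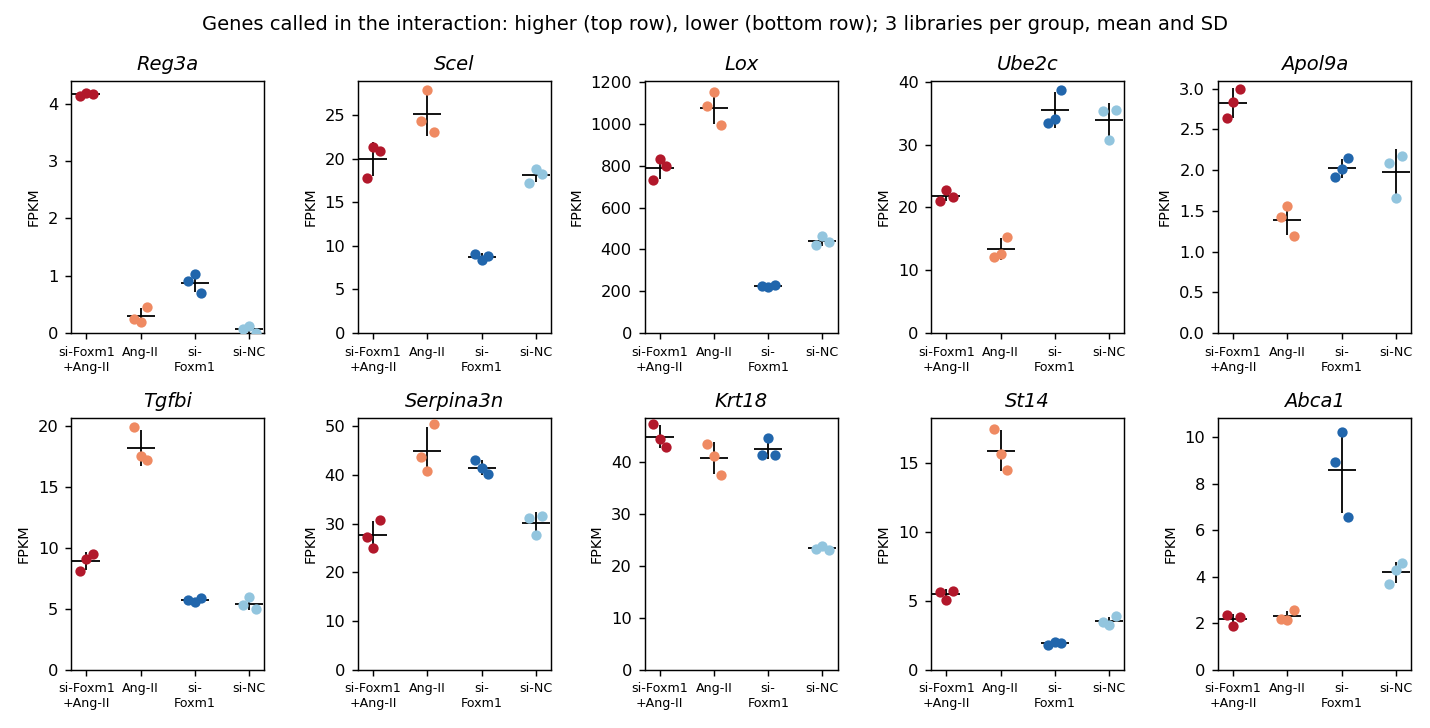
FPKM of 5 genes called higher (upper panels) and 5 called lower (lower panels) in every library of the 4 groups, with the mean and SD of 3 libraries as lines. Tgfbi is highest in Ang-II, Serpina3n changes the order of siRNA and control groups, and Krt18 is low in si-NC alone.

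Genes called higher included some that the siRNA raised more with angiotensin II and some that it lowered less. Scel, which encodes sciellin of the cornified envelope, belonged to the second kind, with 17.7, 21.3 and 20.9 FPKM in si-Foxm1+Ang-II and 24.4, 27.9 and 23.1 FPKM in Ang-II, against 9.10, 8.34 and 8.84 FPKM in si-Foxm1 and 17.3, 18.9 and 18.2 FPKM in si-NC. The siRNA difference was -0.32 ± 0.07 with the hormone and -0.97 ± 0.07 without it. The interaction of Scel was 0.65 ± 0.10 (adjusted p = 0.00946, limma) and was called whichever library was left out. Apol9a, an interferon-inducible apolipoprotein L gene, had 2.64, 2.83 and 3 FPKM in si-Foxm1+Ang-II and 1.42, 1.56 and 1.19 FPKM in Ang-II, against 1.91, 2.02 and 2.15 FPKM in si-Foxm1 and 2.09, 1.65 and 2.18 FPKM in si-NC. Only with the hormone were the siRNA libraries separate from their controls. Its interaction was 0.65 ± 0.11 (adjusted p = 0.0129, limma), and fragments of its close relative Apol9b could be counted with it.

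Reg3a, a secreted antimicrobial lectin, had the highest value but little expression outside si-Foxm1+Ang-II. It had 4.14, 4.19 and 4.17 FPKM in si-Foxm1+Ang-II and 0.253, 0.197 and 0.460 FPKM in Ang-II, against 0.900, 1.02 and 0.702 FPKM in si-Foxm1 and 0.0647, 0.126 and 0 FPKM in si-NC. These levels stand on 63 to 67, 3 to 7, 11 to 16 and 0 to 2 fragments in the 4 groups, and the siRNA groups lay above their controls in both conditions. The interaction was 1.18 ± 0.12 (adjusted p = 0.0004005, limma) with a pseudocount of 1. It was 0.82 with a pseudocount of 0.1 (adjusted p = 0.358) and 0.20 in the voom fit on counts (adjusted p = 0.913), so the call depends on the scale. Tcp11x2, a testis-expressed gene of the X chromosome with close copies, followed the same course. It had 3.38, 2.70 and 2.68 FPKM in si-Foxm1+Ang-II and 0.298, 0.463 and 0.279 FPKM in Ang-II, against 1.39, 1.15 and 1.29 FPKM in si-Foxm1 and 0.213, 0.0592 and 0.357 FPKM in si-NC. Its interaction of 0.62 ± 0.13 (adjusted p = 0.0488, limma) became 0.50 with the smaller pseudocount (adjusted p = 0.633) and 0.25 in voom (adjusted p = 0.874).

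The rest of the 10 highest ranged between 0.52 and 0.61. Trabd2b, a membrane protease that inactivates Wnt proteins, had an interaction of 0.59 ± 0.11 (adjusted p = 0.0242) and was lowered less by the siRNA with the hormone (-0.48 ± 0.08) than without it (-1.06 ± 0.08). Shcbp1, an adaptor that takes part in cytokinesis, had 0.55 ± 0.10 (adjusted p = 0.0250), and Perm1, a regulator of energy metabolism in muscle, 0.52 ± 0.09 (adjusted p = 0.0195). Both rose more with the siRNA in the presence of the hormone. Slc52a3, a riboflavin transporter gene, had 0.52 ± 0.10 (adjusted p = 0.0226) but had only 3 to 7 fragments in each Ang-II and si-NC library, and its adjusted p was 0.0949 in voom. Spsb4, an adaptor of ubiquitin ligases, had 0.54 ± 0.12 (adjusted p = 0.0439, and 0.0579 in voom). Of the 10 highest genes, only Reg3a, Scel and Apol9a remained called whichever single library was left out. Perm1 was called in 10 of those 12 fits, Slc52a3 in 7, Shcbp1 and Ube2c in 6, Trabd2b in 5, and Spsb4 and Tcp11x2 in 2.

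Genes of mitosis and the G2 phase leaned together towards positive interactions, most of them without a call. Of the 51 tested members of this list 6 were called higher and 0 lower (11.8%, against 0.921% of all genes), 49 had a value above 0, 32 had an unadjusted p under 0.05, and the median interaction was 0.30 against -0.02 over all genes. The called members were Ube2c, Ccnb1, Cdca8, Aurka, Racgap1 and Cks2, of which Ccnb1, Aurka and Cks2 are named after their values were seen. The siRNA difference of the list had a median of 0.56 with angiotensin II, where 47 members were higher and 0 lower, and of 0.28 without it, where 35 were higher and 1 lower. Of all genes tested, 44% were higher and 17.4% lower with the hormone, and 48.5% higher and 17.2% lower without it. Under median-of-ratios scaling the list medians were 0.49 and 0.16, with 43 and 23 members higher (27.6% and 26.4% of all genes), and the median interaction was 0.33. Ang-II libraries were the lowest in these genes: the mean log2(FPKM + 1) over the list was 2.85, 2.81 and 2.81 in si-Foxm1+Ang-II, 2.29, 2.15 and 2.43 in Ang-II, 3.51, 3.49 and 3.64 in si-Foxm1 and 3.33, 3.24 and 3.31 in si-NC. No library of 1 group overlapped another group, and replicate 2 was the lowest of each group. The number of calls depends on single libraries. It ranged from 0 without si-Foxm1+Ang-II replicate 2 to 21 without Ang-II replicate 3, whose mean over the list was the highest of its group, and it was 1 or 2 without si-Foxm1 replicate 1, si-Foxm1 replicate 2, si-NC replicate 1 or si-NC replicate 3. In these bulk samples fewer cycling cells and less RNA of these genes per cell cannot be told apart.

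Ube2c, the ubiquitin-conjugating enzyme of the anaphase-promoting complex, had 21, 22.8 and 21.7 FPKM in si-Foxm1+Ang-II and 12.1, 12.7 and 15.3 FPKM in Ang-II, against 33.5, 34.1 and 38.8 FPKM in si-Foxm1 and 35.4, 30.7 and 35.5 FPKM in si-NC. The siRNA libraries were higher with the hormone and overlapped their controls without it. The siRNA differences were 0.68 ± 0.08 (adjusted p = 7.74e-06) and 0.06 ± 0.08 (adjusted p = 0.496), and the interaction was 0.61 ± 0.11 (adjusted p = 0.0216, limma), called in 6 of 12 fits that left out 1 library. Cdca8, the borealin subunit of the chromosomal passenger complex, had the smallest p of the list. It had 9.35, 10.1 and 9.78 FPKM in si-Foxm1+Ang-II and 5.34, 4.69 and 5.18 FPKM in Ang-II, against 17.5, 17 and 18.3 FPKM in si-Foxm1 and 13.6, 12.4 and 13.2 FPKM in si-NC. The siRNA raised it in both conditions, by 0.82 ± 0.05 with the hormone and 0.41 ± 0.05 without, and the interaction of 0.42 ± 0.07 (adjusted p = 0.0137, limma) missed the threshold only without si-Foxm1+Ang-II replicate 2 (adjusted p = 0.0504). Racgap1, a GTPase activator needed for cytokinesis, had 0.39 ± 0.07 (adjusted p = 0.0195), and Aurka, a kinase of the spindle poles, 0.40 ± 0.07 (adjusted p = 0.0216). Ccnb1, the cyclin that starts mitosis, had 0.44 ± 0.09 (adjusted p = 0.0332) and Cks2, a subunit of cyclin-dependent kinases, 0.34 ± 0.07 (adjusted p = 0.0405). Racgap1 and Aurka were called in 8 of 12 fits that left out 1 library, Cks2 in 4 and Ccnb1 in 3. In voom Cks2 was not called (adjusted p = 0.0506). The uncalled members ran from Pttg1, the securin gene, at -0.09 ± 0.11 to Prc1, a microtubule bundler, at 0.51 ± 0.13 (adjusted p = 0.0841). The proliferation marker Mki67 had 0.30 ± 0.11 (adjusted p = 0.238).

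**Figure D3:**
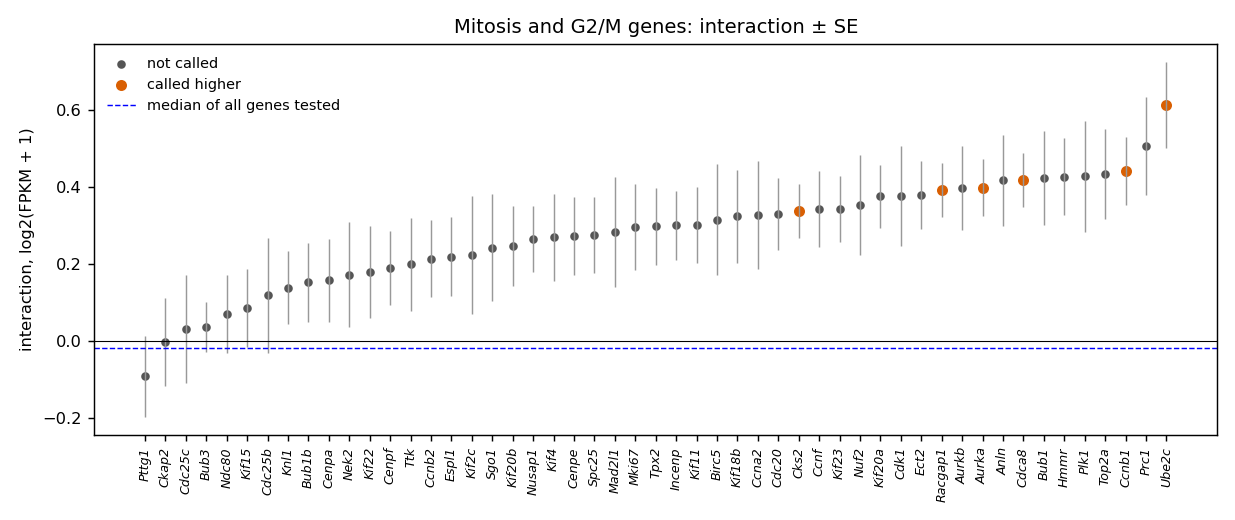
Interaction with its standard error for each of the 51 tested genes of mitosis and G2, in log2(FPKM + 1), ordered by value. The 6 called genes are coloured, 49 of 51 values lie above 0, and the dashed line marks the median of all genes tested, -0.02.

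Promoters of G2 and mitosis genes are known for the cell cycle genes homology region (CHR), through which the MuvB complex, and FOXM1 with it, reaches them. The letters TTTGAA or TTCGAA were searched on both strands from 250 bases before to 50 bases after each annotated start in RefSeq (GRCm38.p6), a build other than the authors' mm39. They occurred in 36 of the 45 list members with a promoter in the table (80.0%) and in 1441 of 8976 tested genes (16.1%). Among the 6 called members 4 held the motif, and for 3 of them the 30 bases around the copy nearest the start are shown to place it, on the strand of the gene with the motif in capitals.
Ube2c: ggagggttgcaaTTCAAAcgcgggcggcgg
Aurka: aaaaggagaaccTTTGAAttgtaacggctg
Racgap1: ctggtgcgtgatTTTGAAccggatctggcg
They lie at chr2:164769888-164769917 on the plus strand for Ube2c and, on the minus strand, at chr2:172370521-172370550 for Aurka and chr15:99651634-99651663 for Racgap1. The motif begins 29 bases before the start in Ube2c, where it is read on the opposite strand, and 32 and 5 bases past the start in Aurka and Racgap1. Among all genes called higher 8 of 32 with a promoter held it (25%), and among those called lower 7 of 40 (17.5%). A match is a description and not a bound site.

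DNA replication genes leaned the same way with no call. Of 46 tested genes of S phase and DNA replication 0 were called, 14 had an unadjusted p under 0.05, 42 lay above 0, and the median was 0.19; voom called 3. Rrm2, a subunit of ribonucleotide reductase, had the smallest p, with 0.43 ± 0.10 (adjusted p = 0.0715). Without Ang-II replicate 3, 8 of these genes were called higher and the median was 0.28. Among 21 cell cycle inhibitors and members of the DREAM complex 0 were called, 2 had an unadjusted p under 0.05 and voom called 0; without Ang-II replicate 3, 1 was called higher. Mybl2, which joins MuvB in the active complex, had 0.28 ± 0.12 (adjusted p = 0.297).

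**Figure D4:**
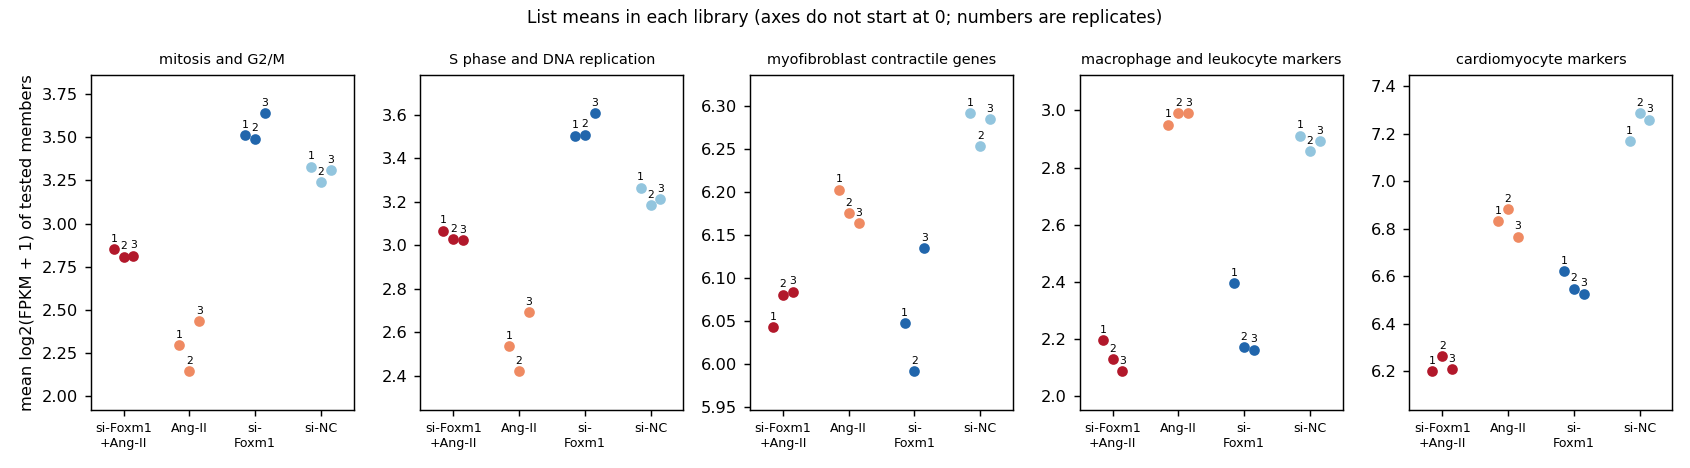
Mean log2(FPKM + 1) of the tested members of 5 gene lists in each library, with the replicate number above each point and axes that do not start at 0. In mitosis and S phase genes Ang-II is the lowest group and its replicate 3 the highest of that group, while macrophage markers are low in both siRNA groups.

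Of 33 contractile genes of myofibroblasts the siRNA lowered 16 and raised 7 with the hormone, where 17.4% of all genes were lower and 44% higher. It lowered 24 and raised 5 without the hormone, where 17.2% of all genes were lower and 48.5% higher. Under median-of-ratios scaling it lowered 23 and raised 3 with the hormone (27.9% of all genes lower and 27.6% higher), and lowered 24 and raised 1 without it (29.3% and 26.4%). In the interaction 3 contractile genes were called higher and 0 lower (9.09%, against 0.921% of all genes), 27 lay above 0, and the median interaction was 0.12. Tagln, the actin-binding protein transgelin, had 442, 459 and 462 FPKM in si-Foxm1+Ang-II and 524, 533 and 496 FPKM in Ang-II, against 363, 334 and 415 FPKM in si-Foxm1 and 565, 550.4 and 538 FPKM in si-NC. The siRNA libraries were lower in both conditions, with no overlap and a wider gap without the hormone. Differences of -0.19 ± 0.06 and -0.58 ± 0.06 gave an interaction of 0.39 ± 0.08 (adjusted p = 0.0439, limma), which was called in 1 of 12 fits that left out 1 library. Fhl2, a LIM protein of focal adhesions, had 0.28 ± 0.06 (adjusted p = 0.0488) and Tpm2, a tropomyosin named after its values were seen, 0.30 ± 0.07 (adjusted p = 0.0488). Acta2, smooth muscle actin, was not called, at 0.37 ± 0.09 (adjusted p = 0.0740). The count of calls in this list was 7 without si-Foxm1 replicate 3, 2 without Ang-II replicate 3, 1 without si-Foxm1 replicate 2 and 0 without any other single library.

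Matrix genes moved in both directions. Lox, which cross-links collagen, had 788 ± 53.1 FPKM in si-Foxm1+Ang-II, 1078 ± 79.9 in Ang-II, 225 ± 6.25 in si-Foxm1 and 439.6 ± 23.1 in si-NC (SD, n = 3 each). The siRNA lowered Lox, with differences of -0.45 ± 0.06 with and -0.96 ± 0.06 without the hormone, and an interaction of 0.51 ± 0.08 (adjusted p = 0.00991, limma) that was called whichever library was left out. In untransformed FPKM its interaction had the other sign, at -75.1 FPKM. Plod2, a lysyl hydroxylase of collagen, was the other call among 41 matrix-modifying genes, at 0.30 ± 0.06 (adjusted p = 0.0405, limma), and was called in 4 of 12 fits that left out 1 library. Calls made up 4.88% of this list, against 0.921% of all genes. Without Ang-II replicate 3, 5 genes of this list were called higher; without si-Foxm1+Ang-II replicate 2 or 3, Ang-II replicate 1, si-Foxm1 replicate 1 or 2, or si-NC replicate 1 or 3, only 1 was. Of 37 collagens and structural matrix genes 1 was higher and 1 lower (5.41%, against 0.921% of all genes). Col11a1, a chain of fibrillar collagen, had 0.33 ± 0.06 (adjusted p = 0.0144) and Vcan, the proteoglycan versican, -0.36 ± 0.05 (adjusted p = 0.00437), both called whichever library was left out; 3 of the list were higher without si-Foxm1 replicate 3. Among the called genes outside that list, and named after their values were seen, were Col4a3 at -0.52 ± 0.09 (adjusted p = 0.0129) and Col4a4 at -0.40 ± 0.08 (adjusted p = 0.0370; not called under either other scaling), neighbouring genes for chains of basement membrane collagen.

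Members of the TGF-beta and BMP pathway were called in both directions. Of 40 tested genes, Tgfbi and Bambi were lower and Gdf6 was higher (7.5%, against 0.921% of all genes), and the median was 0.04. Bambi, a decoy receptor that blocks TGF-beta signalling, had 9.63 ± 0.440 FPKM in si-Foxm1+Ang-II, 6.84 ± 0.314 in Ang-II, 10.8 ± 0.539 in si-Foxm1 and 5.06 ± 0.444 in si-NC. The siRNA raised it by 0.44 ± 0.06 with and 0.96 ± 0.06 without the hormone, an interaction of -0.53 ± 0.08 (adjusted p = 0.00778). Both lower calls stood in every fit that left out 1 library. Gdf6, a BMP ligand named after its values were seen, had 107 ± 2.41, 92.5 ± 5.32, 59.5 ± 4.05 and 66.7 ± 1.80 FPKM in that order and an interaction of 0.37 ± 0.07 (adjusted p = 0.0216), called in 6 of those 12 fits. Among 28 Hippo-YAP genes and targets 2 were higher and 0 lower (7.14%, against 0.921% of all genes), with a median of 0.07. These were Amotl2, an inhibitor of YAP that is itself a YAP target, at 0.33 ± 0.06 (adjusted p = 0.0153), and Ccn1, a matricellular YAP target, at 0.34 ± 0.06 (adjusted p = 0.0216). In both, the siRNA lowered the gene less with the hormone. Both calls were lost without si-Foxm1+Ang-II replicate 2, si-Foxm1 replicate 1 or si-NC replicate 1, and that of Ccn1 also without si-NC replicate 2. Without Ang-II replicate 3, 3 genes of the Hippo-YAP list were called higher and 0 lower.

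Wnt pathway genes gave 2 calls, both lower, of 22 tested (9.09%, against 0.921% of all genes), with a median of -0.004. Dkk3, a secreted glycoprotein of the Dickkopf family, had 24.8, 25.3 and 25.6 FPKM in si-Foxm1+Ang-II and 32.4, 34.0 and 37.0 FPKM in Ang-II, against 48.6, 48.7 and 48.3 FPKM in si-Foxm1 and 47.0, 46.6 and 46.1 FPKM in si-NC. The siRNA lowered Dkk3 with the hormone (-0.43 ± 0.04, adjusted p = 6.40e-07) and left 0.06 ± 0.04 without it (adjusted p = 0.203), an interaction of -0.49 ± 0.05 (adjusted p = 0.00111, limma). Ctnnb1, the gene of beta-catenin, had -0.19 ± 0.04 (adjusted p = 0.0268) and was called in 4 of 12 fits that left out 1 library. Without Ang-II replicate 3 this list had 3 lower calls, without si-Foxm1+Ang-II replicate 1 or Ang-II replicate 2 it had 2, without si-Foxm1 replicate 3 it had 2 lower and 1 higher, and without any other library 1 lower. Ace, the enzyme that makes angiotensin II, was the call among 27 genes of the angiotensin, calcineurin and endothelin list (3.7%, against 0.921% of all genes). It had 9.39 ± 0.259, 8.35 ± 0.644, 16.7 ± 0.768 and 10.6 ± 0.616 FPKM from si-Foxm1+Ang-II to si-NC, and an interaction of -0.45 ± 0.08 (adjusted p = 0.0144) that missed the threshold without si-Foxm1+Ang-II replicate 2 (adjusted p = 0.0537). Spry1, a feedback inhibitor of ERK signalling, had 0.24 ± 0.05 (adjusted p = 0.0248), Phgdh, which opens serine synthesis, 0.21 ± 0.04 (adjusted p = 0.0195), and Atp5g1, a subunit of ATP synthase, 0.30 ± 0.06 (adjusted p = 0.0419). Each was the call of its list, of 16 ERK feedback genes, 34 integrated stress response and amino acid genes, and 46 respiratory chain genes. The shares called in these lists were 6.25%, 2.94% and 2.17%, against 0.921% of all genes. The calls of Spry1, Phgdh and Atp5g1 stood in 6, 9 and 4 of the 12 fits that left out 1 library, and each was lost without si-Foxm1+Ang-II replicate 2, si-Foxm1 replicate 1 or si-NC replicate 1. Without Ang-II replicate 3, the ERK feedback list had 1 higher and 1 lower call.

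Markers of other cell types were followed because RNA of cardiomyocyte genes was present in cells labelled as fibroblasts. Of 17 tested macrophage and leukocyte markers 16 lay below 0, the median interaction was -0.19, and 1 was called, Ctss (5.88%, against 0.921% of all genes). The 26 markers summed to 170 to 192 FPKM in si-Foxm1+Ang-II, 419 to 450 in Ang-II, 173 to 217 in si-Foxm1 and 348 to 355 in si-NC, so the siRNA groups were low in both conditions and the controls were higher with the hormone. Ctss, the lysosomal protease cathepsin S, had 25.9 ± 1.09, 73.5 ± 1.35, 27.9 ± 2.86 and 59.4 ± 1.70 FPKM from si-Foxm1+Ang-II to si-NC and an interaction of -0.40 ± 0.08 (adjusted p = 0.0290; 0.0581 after quantile normalization). This call was lost without si-Foxm1+Ang-II replicate 2 or 3, Ang-II replicate 1 or any of the si-NC replicates. Other called genes that macrophages express, picked after their values were seen, included Mpeg1 (-0.41), Gpnmb (-0.43), Lgmn (-0.29), Ctsb (-0.18), Ctsd (-0.16), Apoe (-0.52) and Lpl (-0.21). Fibroblasts and cardiomyocytes express some of these too, and the part of macrophage RNA in their values was not tested. Siglecg (0.34) and Kit (0.31), genes of other blood cells and also picked after their values were seen, were called higher. Each of these 2 calls stood in 2 of 12 fits that left out 1 library. Gpnmb, Lgmn and Apoe were called in all 12 fits that left out 1 library. Mpeg1 was called in 9 of those fits, Ctsb and Lpl in 3 and Ctsd in 1. Under median-of-ratios scaling Ctsb, Ctsd and Lpl were not called (adjusted p = 0.0557, 0.0759 and 0.0527, limma). None of the 26 markers was at 0 in all 12 libraries, and 9 averaged under 1 FPKM.

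Cardiomyocyte markers differed strongly between siRNA and control groups, with median siRNA differences of -0.39 with and -0.45 without the hormone. Their interactions were smaller, from -0.20 to 0.35 with a median of 0.04, and 28 lay above 0 and 12 below. Of 40 tested markers 0 were called, 13 had an unadjusted p under 0.05 (against 14.3% of all genes), and voom called 5 higher and 1 lower. Median-of-ratios scaling called 5 higher, and quantile normalization 1 higher and 4 lower. Without Ang-II replicate 3, 2 were called higher and 1 lower; without si-Foxm1+Ang-II replicate 1 it was 2 higher, without Ang-II replicate 2 it was 1 higher, and without si-Foxm1 replicate 3 it was 1 lower. Ckmt2, the mitochondrial creatine kinase, had the smallest p, with 0.23 ± 0.05 (adjusted p = 0.0536). Myh6, the alpha myosin heavy chain, fell with the siRNA by log2 differences of -1.04 ± 0.06 with and -1.07 ± 0.06 without the hormone, an interaction of 0.03 ± 0.08. Nppa, the atrial natriuretic peptide gene, had -1.53 ± 0.05 and -1.54 ± 0.05, an interaction of 0.02 ± 0.07; both are named after their values were seen. Among 18 epicardial and mesothelial markers 2 were lower (11.1%, against 0.921% of all genes). These were Krt18 and Clu, an extracellular chaperone with -0.30 ± 0.05 (adjusted p = 0.0175, limma). Without Ang-II replicate 3, 2 markers of this list were called lower and 1 higher. Of 20 endothelial, 14 pericyte and 21 fibroblast markers 0 were called by limma and 0 by voom, with medians of -0.07, 0.03 and 0.03 and an unadjusted p under 0.05 in 1, 0 and 3 members; 1 fibroblast marker was called higher without si-Foxm1 replicate 3. In these 3 lists the smallest p belonged to Icam2 (-0.44 ± 0.17), Mustn1 (0.20 ± 0.10) and Mfap4 (0.21 ± 0.07).

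The remaining lists gave 0 calls in the limma fit, and their medians lay between -0.08 and 0.03. Without Ang-II replicate 3, 2 lipid synthesis genes, 1 interferon response gene and 1 NRF2 gene were called higher, and 1 chemokine list gene and 1 growth factor gene lower. Leaving out si-Foxm1+Ang-II replicate 1, Ang-II replicate 1 or si-Foxm1 replicate 3 gave at most 1 call in any of these lists, and leaving out another library gave 0. The NRF2 antioxidant genes had the lowest, with 23 of 28 members below 0 and Sqstm1, an autophagy receptor, at -0.16 ± 0.04 (adjusted p = 0.0841); voom called 2 of them lower. Their unadjusted p was under 0.05 in 8 members, against 0 of 69 cytosolic ribosomal protein genes, whose values ran only from -0.10 to 0.10. Between 1 and 7 members had an unadjusted p under 0.05 in the other lists, and voom called at most 3 in any of them. Those lists, each with its member of smallest p, were p53 targets (Ddb2, -0.43 ± 0.11), immediate early genes (Klf2, 0.30 ± 0.07), the p38 cascade (Atf2, -0.15 ± 0.06), chemokines and NF-kB genes (Tnfaip3, 0.34 ± 0.08), interferon response genes (H2-K1, -0.13 ± 0.04), the unfolded protein response (Manf, 0.11 ± 0.03), lipid synthesis (Srebf1, -0.24 ± 0.06), glycolysis and hypoxia (P4ha1, 0.16 ± 0.04), heat shock chaperones (Hsp90ab1, -0.10 ± 0.04) and growth factors with their receptors (Igfbp5, -0.55 ± 0.13). Rpl23 led the ribosomal genes at -0.10 ± 0.05.

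**Figure D5:**
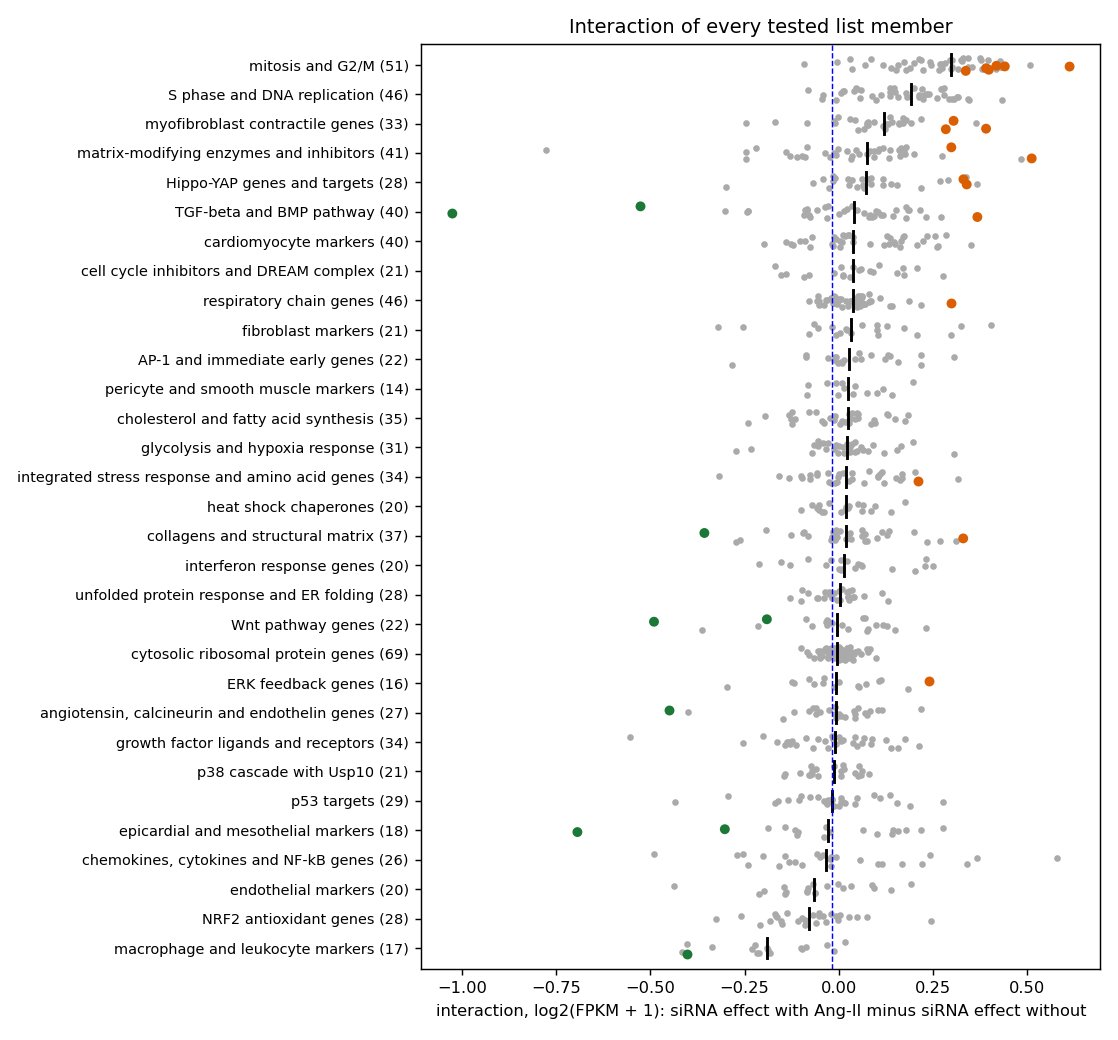
Interaction of every tested member of the 31 gene lists in log2(FPKM + 1), with list sizes in brackets, called genes coloured, black bars at list medians and a dashed line at the median of all genes. Mitosis genes have the highest median, 0.30, and macrophage markers the lowest, -0.19.

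In 13 genes the siRNA difference was called in both conditions with opposite signs, and these are named after their values were seen. The 6 with a positive interaction were Snai1, Dok1, Gdf6, Fgfrl1, Sox4 and Prkcd, in which the siRNA lowered the gene without the hormone and raised it with the hormone. Snai1, a transcription factor of epithelial to mesenchymal transition, had 15.8 ± 1 and 13.7 ± 0.941 FPKM in si-Foxm1+Ang-II and Ang-II, and 14.1 ± 1.32 and 17.1 ± 0.879 FPKM in si-Foxm1 and si-NC. Its interaction was 0.46 ± 0.09 (adjusted p = 0.0384, limma) and was called in 3 of 12 fits that left out 1 library. The 7 with a negative interaction were Serpina3n, Tcim, Prkar1b, Selenop, Tigd2, Dapk3 and Aplp2. Selenop, a selenium carrier, had 28.6 ± 0.766 and 36.0 ± 4.44 FPKM in si-Foxm1+Ang-II and Ang-II, and 90.3 ± 2.20 and 81.1 ± 2.29 FPKM in si-Foxm1 and si-NC, an interaction of -0.47 ± 0.09 (adjusted p = 0.0216). Opposite calls under both other scalings were kept by Serpina3n, Tcim, Prkar1b and Tigd2, all with a negative interaction. Both scalings also placed Pdk4, Gadd45a and Nrep among the opposite calls. Under both, the siRNA difference of Snai1 was called only without the hormone and that of Selenop only with it. The Selenop interaction was called in 6 of 12 fits that left out 1 library.

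Seen from the hormone's side, the same contrast is the angiotensin difference with the siRNA less that without it. The same libraries enter, so this is a description that the choice of genes fixes in part. Of the 58 lower genes the Ang-II minus si-NC difference was above 0 in 45, while si-Foxm1+Ang-II minus si-Foxm1 was above 0 in 19, and the sign differed in 26. Of the 45 higher genes these counts were 15 and 24, with a different sign in 9. Tgfbi had an angiotensin difference of 0.56 with the siRNA and 1.58 without it, Krt18 of 0.08 and 0.77, and Tmtc1 of -0.02 and 0.66. In the mitosis list the median angiotensin difference was -0.72 with the siRNA and -1.04 without it.

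Sequence features of the called genes were counted as a description. A TEAD site (GGAATG) was found in 10 of 32 promoters of genes called higher (31.2%), 4 of 40 of those called lower (10%) and 14.3% of all tested. An AP-1 site (TGANTCA) was found in 15.6%, 10% and 5.87%, an E2F site (TTNGCGC) in 21.9%, 10% and 13.1%, and a forkhead site (GTAAACA) in 0.0%, 7.5% and 3.01% of the same sets, each on both strands. Motifs in 3′ UTRs that had been chosen earlier from the siRNA differences of these data (TCCATTA or CCATTAA, and AATAGGA or ATAGGAA) did not mark the interaction. The 455 genes with both kinds had a median siRNA difference of -0.09 with and -0.06 without the hormone, against 0.12 and 0.14 in the 8029 genes with neither. Their median interactions were -0.01 and -0.02, and 4 (0.879%) and 84 (1.05%) were called.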

How the data were processed

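Total RNA from mouse neonatal ventricular cardiac fibroblasts was sequenced as stranded mRNA libraries, per the labels' protocols. The authors deposited FPKM values per gene, made with fastp, HISAT2 and HTSeq on mm39, per the submitters' processing notes; the sources used here do not state versions, annotation, gene lengths or the strand setting. Every column of the table belongs to a labelled sample. Low values were whole multiples of 1 fragment, so fragment counts were recovered for 17960 of 17960 genes above 0, within 0.02 of a whole number.

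The 12 libraries were fitted in limma 3.58.1 (R 4.3.3) on log2(FPKM + 1), with 1 mean per group, a mean-variance trend and 8 residual degrees of freedom per gene. Genes had a mean of at least 1 FPKM, with Benjamini-Hochberg adjustment across the 11180 genes. Errors of log2 values are standard errors and those of FPKM are SDs. Alternatives changed the pseudocount, filter, scaling, spread model, libraries or counts (voom). The fit was tested on simulated data in which every gene had the same extra spread and no library stood apart. That test does not cover a library such as Ang-II replicate 3. Named genes are Foxm1, Usp10, the 10 highest and 10 lowest called, and of each of 31 lists the 2 called members with the smallest p, or 1 member where none was called. Members and lists were chosen with earlier results of these data known. Promoters came from RefSeq (GRCm38.p6) and 3′ UTRs from GENCODE M21, matched by symbol; no coordinate of these builds was joined to the authors' build. The motif window of 1 gene is not reported here. Figures used Python 3.11.15 and matplotlib 3.10.9.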

Additional observations from a re-analysis of the deposited data

Results flagged for a closer look

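The interaction is itself a test of whether the siRNA difference is the same with and without angiotensin II, and 39 of the genes named by rule passed it at an adjusted p under 0.05 (limma). Their values are siRNA differences with the hormone minus those without it, in log2(FPKM + 1). The Ang-II label names no siRNA, so an effect of transfection as such cannot be told apart from the siRNA difference with the hormone. The siRNA difference was more positive with the hormone in Reg3a (1.18), Scel (0.65), Apol9a (0.65), Tcp11x2 (0.62), Ube2c (0.61), Trabd2b (0.59), Shcbp1 (0.55), Spsb4 (0.54), Slc52a3 (0.52), Perm1 (0.52), Lox (0.51), Cdca8 (0.42), Racgap1 (0.39), Tagln (0.39), Ccn1 (0.34), Amotl2 (0.33), Col11a1 (0.33), Plod2 (0.30), Atp5g1 (0.30), Fhl2 (0.28), Spry1 (0.24) and Phgdh (0.21). It was more negative with the hormone in Ctnnb1 (-0.19), Clu (-0.30), Vcan (-0.36), Ctss (-0.40), Ace (-0.45), Dkk3 (-0.49), Bambi (-0.53), Fxyd6 (-0.65), Prkar1b (-0.67), Tmtc1 (-0.67), Krt18 (-0.69), Tcim (-0.74), St14 (-0.76), Abca1 (-0.93), Tgfbi (-1.03), Serpina3n (-1.13) and Sprr2a3 (-1.36). Of all 103 called genes, 33 were called whichever single library was left out, 9 higher and 24 lower.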

How the results depend on the processing

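None of the 39 called genes named by rule changed the sign of its log2 interaction under an alternative. The median interaction of all genes, -0.02, was 0.01 under median-of-ratios scaling, where calls were 67 higher and 48 lower. The 103 interaction calls (45 higher, 58 lower) were 57 (19 and 38) with no filter, 170 (78 and 92) with all 18 libraries sharing the spread, 229 (112 and 117) in voom on recovered counts, and 4 (1 and 3) at a log2 size of at least 1. Higher calls were 72 after quantile normalization and 23 with no mean-variance trend. Leaving out 1 library gave 37 calls (without si-Foxm1+Ang-II replicate 2) to 196 (without Ang-II replicate 3), with 10 to 108 higher and 27 to 88 lower. Of the 103 calls, 98 stood without Ang-II replicate 3, 94 in voom and 33 whichever library was left out. The siRNA calls were 3082 higher and 3116 lower with the hormone, and 2954 and 3273 without it, under median-of-ratios scaling, and 3430 and 2975 without it after quantile normalization. At a log2 size of at least 1 they were 100 with the hormone (47 and 53) and 94 without it (51 and 43). The cause of these moves was not tested, except that fewer genes can pass a size limit. Nothing in the labels says that replicate numbers pair the samples, and they were not treated as pairs. Deviations of same-numbered libraries correlated between -0.04 and 0.18, over 0.1 in 7 of 18 pairs and in 5 of 6 between the libraries numbered 2, against -0.16 to 0.13 for different numbers. By mean correlation 9 of 12 libraries were closest to their own number, a hint from the data and not from the design. The fit with a replicate block called 137 genes (62 higher, 75 lower), 10 of them mitosis genes in place of 6. Depth limits the genes with few fragments, Reg3a, Tcp11x2, Slc52a3 and Sprr2a3, whose calls were not made in voom. The calls of Spsb4, Cks2, Gal3st1, Procr and Tppp3 were not made in voom either. Gal3st1, Procr and Tppp3 are named after their values were seen.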
